A study of Mus musculus with 8 samples.

Results

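The transcripts described here are those of 10 cardiac sarcomere genes, *Actc1*, *Myl7*, *Myl4*, *Myl3*, *Myh7*, *Myh6*, *Tnnt2*, *Tnnc1*, *Tnni1* and *Actn2*, as measured in single endocardium cells of the mouse heart. All non-control probes carrying 1 of these gene names were taken. They were 12 of the 55681 probes of the array, with 1 probe for each of 8 genes and 2 probes each for *Myh6* and *Actn2*. The cells came from heart tubes of embryos at E8.5 with 9 somites, and the sample labels name the endocardium as their compartment. WT cells were Mesp1+/+ with Sox17flox/flox alleles and no Cre, and *Sox17* KO cells were Mesp1Cre/+ with the same Sox17flox/flox alleles, with 4 cells of each genotype and 1 cell on each 1-colour array. Since Mesp1-Cre is active in nascent mesoderm, from which endocardium and myocardium both arise, the deletion was not limited to the endocardium, and KO cells also differed from WT cells by carrying Cre at 1 *Mesp1* allele. The 2 questions addressed were whether sarcomere transcripts differed between WT and KO cells and whether they were high together within a cell.

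The sarcomere is the contractile unit of striated muscle. Thick filaments of myosin heavy chains (*Myh6*, *Myh7*), each carrying light chains (*Myl3*, *Myl4*, *Myl7*), pull on thin filaments of actin (*Actc1*), and the troponin complex (*Tnnt2*, *Tnnc1*, *Tnni1*) makes this pull depend on calcium, while *Actn2* cross-links actin at the Z-disc. In the embryonic heart these genes are known as products of cardiomyocytes, whereas the endocardium is the endothelial lining beneath them.

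Signals are given on the log2 scale, after the arrays had been brought to the same median over the 7570 probes called well above background by the scanner software in all 8 cells. Scaled signals under 50 were raised to that floor, which is 5.64 on the log2 scale, so that cells at the floor cannot be ranked. Where 4 values are given for a genotype, they follow the numbers of the cells, from 1 to 4. Between 11370 and 18175 probes were well above background in a cell, or 20.6% to 32.9% of the 55295 probes usable on all arrays. All arrays lay on 1 slide, WT and KO cells each in a column of their own, and genotype and place on the slide cannot be told apart. The labels do not say which embryo a cell came from, a genotype therefore counted as 1 sample, and no test was made. Differences are given as KO minus WT of the mean log2 signal, with the pooled SD of cells within a genotype, and the number of arrays limits their precision. The 2 *Sox17* probes were well above background in 0 of 8 cells, so that the arrays give no check of the deletion.

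Each probe is a stretch of 60 bases, and the cDNA was primed from the poly(A) tail. The *Myh6* transcript was read at 2 places, at base 308 and at base 6003 of the targeted transcript, and the probe sequences show what each read. The first of them, the probes of *Myl7*, *Tnnt2* and *Tnni1*, which were high in different sets of cells with KO cell 4 in common, and that of *Tnnc1*, which was detected in no cell, are printed whole. Of the *Myh6* probe at base 6003 and of the *Myl3* probe only the part around the polyadenylation signal is printed, with the signal AATAAA in capitals.
*Myh6*, base 308: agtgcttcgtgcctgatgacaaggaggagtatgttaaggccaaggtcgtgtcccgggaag
*Myh6*, base 6003, part: tggccaatacacAATAAAcata
*Myl3*, base 837, part: tgtggccttatgAATAAAtggtttcc
*Myl7*, base 129: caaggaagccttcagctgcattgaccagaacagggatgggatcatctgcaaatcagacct
*Tnnt2*, base 863: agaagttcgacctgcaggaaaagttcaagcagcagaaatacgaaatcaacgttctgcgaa
*Tnni1*, base 540: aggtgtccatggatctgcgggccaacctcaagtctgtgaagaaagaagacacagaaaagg
*Tnnc1*, base 212: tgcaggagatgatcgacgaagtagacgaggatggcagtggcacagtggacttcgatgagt
In the mm9 coordinates of the array files, the *Myh6* probes lie on the minus strand at chr14:55584132-55584191 and chr14:55560774-55560833, the *Myl3* probe on the plus strand at chr9:110672238-110672297, and the *Tnni1* probe on the plus strand at chr1:137705328-137705387. The probes of *Myl7*, *Tnnt2* and *Tnnc1* are listed there as unmapped. Exon and UTR annotation of that build was not used here. No probe of these genes shared a run of more than 9 bases with a probe of another gene on the sarcomere or paralog lists.

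**Figure D1:**
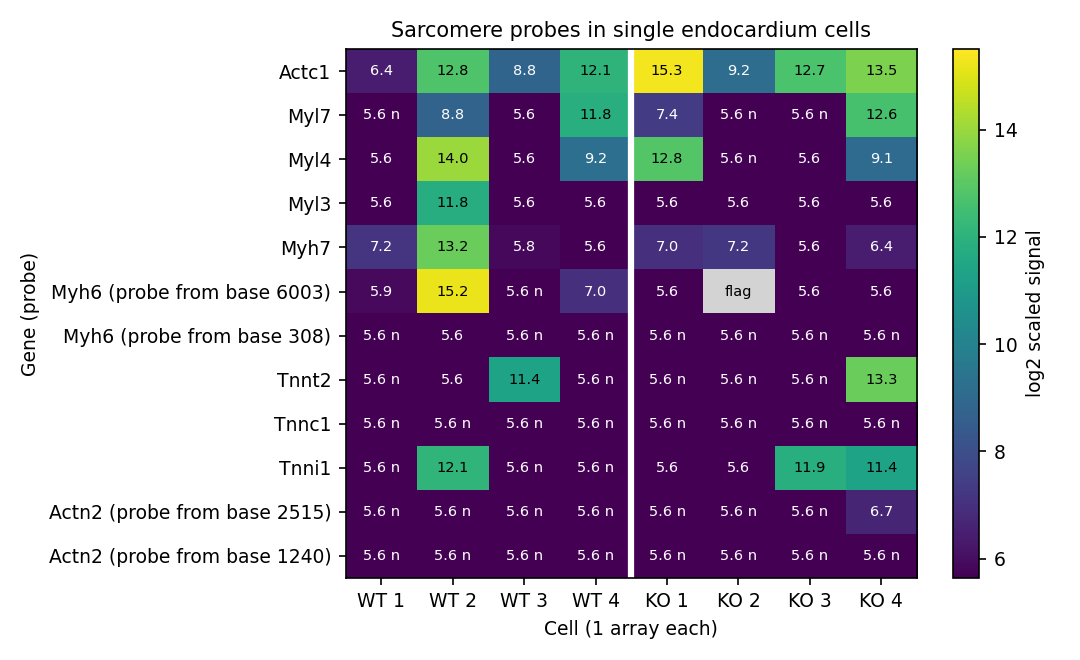
The log2 scaled signal of each of the 12 probes (rows) in each of 8 cells (columns, WT 1 to 4 and KO 1 to 4, 1 array each), with n for a value not well above background and a grey box for the spot marked as non-uniform. *Myl3*, *Myh7* and *Myh6* were high in WT cell 2, at 11.80, 13.24 and 15.21, and at most 7.25 in any other cell with a usable spot, while *Actc1* was above the floor of 5.64 in all cells.

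Both myosin heavy chains were high in 1 cell. *Myh7*, the slow or beta heavy chain, had log2 signals of 7.16, 13.24, 5.85 and 5.64 (WT) and 6.96, 7.25, 5.64 and 6.44 (KO). All 8 cells passed the background call, and the cell next to WT cell 2 in level was KO cell 2. *Myh6*, the alpha heavy chain, had signals of 5.88, 15.21, 5.64 and 6.99 (WT) at its probe near the polyadenylation signal. KO cells 1, 3 and 4 were at the floor of this probe, and its spot in KO cell 2 was marked as non-uniform by the scanner software and left out. With that spot, KO cell 2 would have had 7.48. The *Myh6* probe at base 308 was at the floor in all 8 cells, WT cell 2 included, and passed the background call in WT cell 2 alone. The 2 *Myh6* probes thus differed in WT cell 2, and every *Myh6* value below is from the probe at base 6003.

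The light chains were high in different sets of cells. *Myl3*, the ventricular essential light chain, was at 11.80 in WT cell 2, with the other 7 cells at the floor, although the scanner software called it well above background in all 8. *Myl4*, the atrial and embryonic essential light chain, was at 5.64, 14.03, 5.64 and 9.24 (WT) and 12.84, 5.64, 5.64 and 9.10 (KO). It was above the floor in the same 4 cells as *Myl7*, the atrial regulatory light chain. *Myl7* was at 5.64, 8.80, 5.64 and 11.84 (WT) and 7.40, 5.64, 5.64 and 12.64 (KO). The order of these 4 cells differed, since WT cell 2 was the highest of the 8 for *Myl4* and KO cell 4 for *Myl7*. For both genes the WT and KO cells overlapped.

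Cardiac actin was the only one of the 10 genes above the floor in every cell. The log2 signal of *Actc1* was 6.38, 12.80, 8.81 and 12.06 (WT) and 15.32, 9.17, 12.70 and 13.55 (KO). The lowest KO cell was above WT cells 1 and 3 but below WT cells 2 and 4, so that the genotypes overlapped.

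The 3 troponin subunits differed in the cells that held them. *Tnnt2*, which anchors troponin to tropomyosin, reached 11.37 in WT cell 3 and 13.26 in KO cell 4, with the other 6 cells at the floor. *Tnni1*, the slow skeletal inhibitory subunit that the fetal heart uses, reached 12.09 (WT cell 2), 11.87 (KO cell 3) and 11.37 (KO cell 4), with the other 5 at the floor. Of these 5, KO cells 1 and 2 still passed the background call for *Tnni1*, whereas WT cells 1, 3 and 4 did not. KO cell 4 was therefore the one cell with *Tnnt2* and *Tnni1* both above the floor. *Tnnc1*, the calcium-binding subunit, was not well above background in any cell, so that no difference could be given. *Actn2*, a Z-disc protein used as a marker of cardiomyocytes, was well above background in KO cell 4 only, at 6.68, and in 0 of 4 WT cells. Its mean was 1.20-fold higher in KO cells, which rests on KO cell 4 alone, since all other cells were at the floor. The difference was 0 without that cell and with a floor of 200. The other *Actn2* probe was not well above background in any cell.

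**Figure D2:**
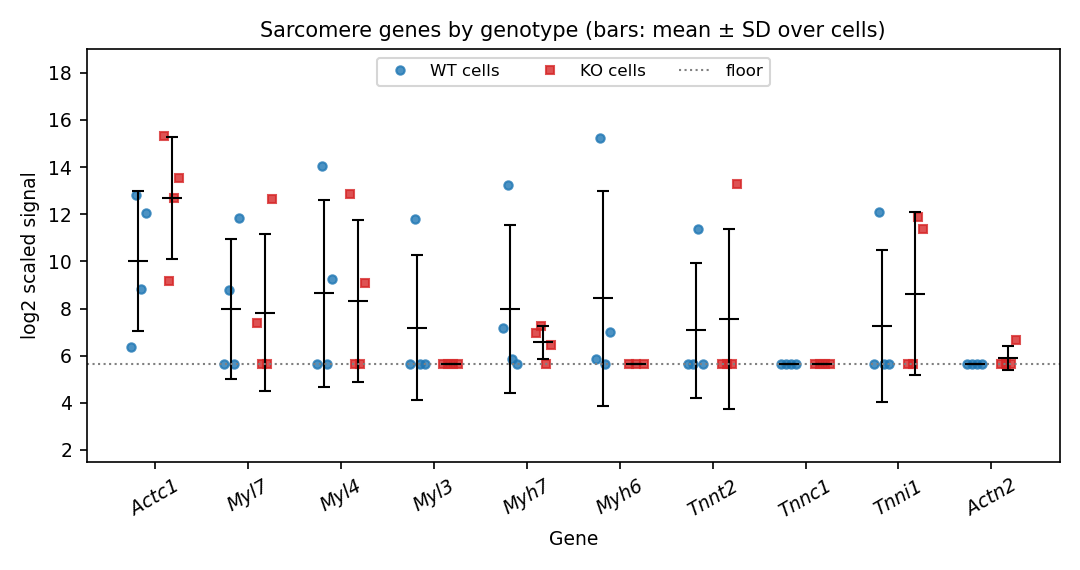
The log2 scaled signal (vertical axis) of each gene (horizontal axis) in WT cells (circles) and KO cells (squares), with the mean and SD over cells as bars and the floor of 5.64 as a dotted line. The genotypes overlap for all 10 genes, the mean of *Actc1* was 10.01 in WT and 12.68 in KO cells, and that of *Myh6* was 8.43 in WT and 5.64 in KO cells.

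Comparing KO with WT cells, the mean log2 signal was higher in KO for 4 of the 10 genes, lower for 5 and at the floor in both for *Tnnc1*. The median of the 10 differences was -0.08, and that of the 26833 probes well above background in at least 1 cell was 0. *Actc1* had the largest positive difference, 2.67 with an SD between cells of 2.79 (n = 4 and 4 cells), or 6.38-fold. *Myh6* had the largest negative one, -2.79 with an SD of 3.53 (n = 4 and 3 cells), or 6.91-fold lower in KO. These were the 2 of 10 genes past 5-fold, 1 in each direction, where 5.68% of the 26833 probes passed it, 2.83% as higher and 2.85% as lower in KO. Neither kept this size under every setting. *Actc1* was under 5-fold with quantile normalization (1.94), normexp (2.28), the 75th percentile (2.28) and a floor applied ahead of scaling (2.31), and *Myh6* with a floor of 200 (-1.89), with the mean of its probes (-1.39) and by its other probe (0). The WT and KO cells did not overlap for 0 of the 10 genes, against 1.34% of the probes.

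No difference for these genes was larger than the SD between cells. The SDs had a median of 2.97, against 0.64 over the 26833 probes. For the other genes the difference was 1.38 (SD 3.34) for *Tnni1*, 0.47 (SD 3.37) for *Tnnt2*, -0.15 (SD 3.15) for *Myl7*, -0.33 (SD 3.71) for *Myl4*, -1.40 (SD 2.58) for *Myh7* and -1.54 (SD 2.18) for *Myl3*. Single cells set several of these values. Without WT cell 2, the difference was -0.53 for *Myh6*, 0.35 for *Myh7*, 0 for *Myl3*, 1.47 for *Myl4* and 2.99 for *Tnni1*. That of *Tnni1* was 0.30 without KO cell 3 and 0.46 without KO cell 4, and that of *Myl7* was -1.75 without KO cell 4 and 1.14 without WT cell 4. That of *Tnnt2* was -1.43 without KO cell 4 and 1.90 without WT cell 3. For *Actc1* it was 1.46 without WT cell 1, 1.79 without KO cell 1, 2.27 without WT cell 3 and up to 3.84 when another cell was left out, and KO was the higher genotype each time.

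Counted within each cell, WT cell 2 and KO cell 4 held the most of these transcripts. Of the 10 genes, 5, 8, 6 and 6 (WT) and 7, 4, 6 and 9 (KO) passed the background call, with *Myh6* not counted in KO cell 2. Of all usable probes 20.6%, 29.7%, 25.8% and 32.9% (WT) and 25.6%, 23.1%, 30.5% and 29.5% (KO) passed it. *Actc1*, *Myl3* and *Myh7*, 3 of the 10, passed it in all 8 cells, as did 13.7% of all probes, and *Tnnc1* in no cell, as did 51.5% of all probes. Scaled signals of at least 500, which is 10 times the floor, were found for 0, 6, 1 and 3 (WT) and 2, 1, 2 and 5 (KO) of the 10 genes. Over all usable probes 7.7%, 10.5%, 10.5% and 11.3% (WT) and 8.94%, 8.77%, 10.8% and 10.2% (KO) were at this level. In WT cell 2 the genes at this level were *Actc1*, *Myl4*, *Myl3*, *Myh7*, *Myh6* and *Tnni1*. In KO cell 4 they were *Actc1*, *Myl7*, *Myl4*, *Tnnt2* and *Tnni1*. The 3 shared genes, *Actc1*, *Myl4* and *Tnni1*, were 50% of the first set and 60% of the second. Of the other cells, WT cell 4 held *Actc1*, *Myl7* and *Myl4* at this level, KO cell 1 *Actc1* and *Myl4*, KO cell 3 *Actc1* and *Tnni1*, KO cell 2 *Actc1* and WT cell 3 *Tnnt2*.

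Across cells, pairs of these genes were high together more in some subsets than in others. Pearson's r over the 8 cells, which share a slide, an amplification protocol and the floor, had a median of 0.30 over the 36 pairs of the 9 genes above the floor in at least 1 cell, from -0.30 to 0.99. It was above 0 for 29 pairs (80.6%) and above 0.5 for 11 (30.6%). Over all pairs of the 14558 genes with a spread the median was -0.10, 43.2% of pairs were above 0 and 12.9% above 0.5. Those genes were not matched to the sarcomere genes for the number of cells above the floor. Genes above the floor in 1 cell only, and in different cells, have a fixed r slightly below 0. Of all pairs, 9.80% had r from -0.15 to -0.1. The 2 distributions are therefore not compared like with like. The 3 pairs above 0.9 were those among *Myl3*, *Myh7* and *Myh6*, each with its highest value in WT cell 2, with 0.99 for *Myl3* and *Myh6* (7 cells), 0.96 for *Myl3* and *Myh7*, and 0.95 for *Myh7* and *Myh6* (7 cells). Without WT cell 2, r for *Myh7* and *Myh6* was -0.36, and *Myl3* had no spread left. *Actc1* and *Myl4* had r of 0.72, and of 0.79 without WT cell 2. *Tnnt2* and *Actn2* had 0.77, which rests on KO cell 4, the one cell with *Actn2* above the floor (6.68). Among the other partners of *Tnnt2*, r was 0.36 with *Myl7*, 0.19 with *Tnni1*, 0.03 with *Actc1*, -0.15 with *Myl4*, -0.22 with *Myl3*, -0.26 with *Myh7* and -0.30 with *Myh6*. Without WT cell 2 the median over the 28 pairs left was 0.12, with 25% above 0.5 against 14.6% of all pairs. Without WT cell 2 and KO cell 4 it was -0.26 over 21 pairs, with 14.3% above 0.5 against 17.4% of all pairs, where the median was -0.11. These 2 cells were left out because their mean over the same genes was farthest from the median. WT cell 2 had the highest mean. Leaving out cells chosen in this way by itself lowers r among these genes and not among all pairs. The share of sarcomere pairs can therefore not be read against that of all pairs, with either 1 or 2 cells left out.

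**Figure D3:**
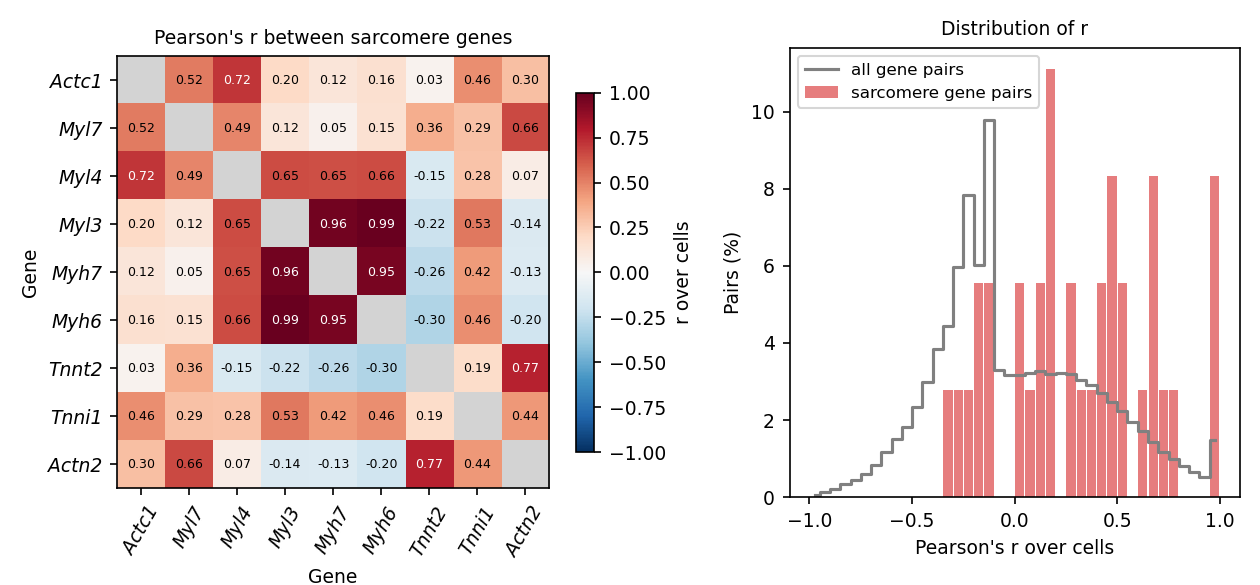
Left, Pearson's r over cells for each pair of the 9 sarcomere genes with a spread, from blue (-1) over white (0) to red (1). Right, the share of pairs in percent (vertical axis) at each r (horizontal axis) for the 36 sarcomere pairs (bars) and for all pairs of 14558 genes (line). The block of *Myl3*, *Myh7* and *Myh6* has r of 0.95 to 0.99, and the median was 0.30 for sarcomere pairs and -0.10 for all pairs.

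The mean log2 signal of the 10 genes was 5.89, 10.49, 6.55 and 7.40 (WT) and 7.64, 6.21, 6.97 and 9.00 (KO), where that of KO cell 2 is over 9 genes, without *Myh6*. Of 11166 other genes well above background in at least 3 cells, the 5 whose log2 signals had the highest r with this mean over the 8 cells were *Nploc4*, *Zdhhc16*, *Haus3*, *Trim59* and *H2bc1* (listed as *Hist1h2ba* on the array), each at 0.93. None of them belongs to the muscle lists, and 31 of the candidates had r above 0.9. *Nploc4* was at 12.23 in WT cell 2 and at 11.76 in KO cell 4 and between 5.66 and 8.75 elsewhere. The mean of the sarcomere genes had r of 0.57 (Spearman's rho 0.57) over the 8 cells with the number of probes well above background, and of 0.73 without WT cell 2 and KO cell 4. The part of this depth in the pattern was not tested. WT cell 2 and KO cell 4 were chosen by the sarcomere mean itself, here and for the markers below, so that r without them is a description only.

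Other muscle genes were taken from lists of the same structures. Of 8 other thin filament genes, 3 were above the floor in at least 1 cell. *Tpm1*, a tropomyosin also made outside muscle, was at 5.64, 5.64, 5.64 and 11.35 (WT) and 8.64, 13.61, 9.83 and 9.50 (KO) by the brightest of its 5 probes, and its difference was 3.32 (SD 2.55). *Tpm1* is known to make several isoforms, and its other probes differed from this one. Of them, 1 had a like pattern except for the floor in KO cell 4, another was above the floor in every cell, from 7.60 to 10.32, and a pair of them were above the floor in WT cell 2 only, at 10.48 and 9.80. No single direction between genotypes can therefore be given for *Tpm1*. *Acta1*, skeletal actin, was above the floor in WT cell 2 (8.42) and KO cell 4 (7.63) only, and *Tnni2* was at most 6.03. Of 9 other thick filament and M-line genes, 4 were above the floor. *Myl2*, the ventricular regulatory light chain, reached 13.57 in WT cell 2, with WT cell 1 at 5.80 and the other 6 cells at the floor. *Myh7b* was above the floor in WT cell 2 only, at 10.50. *Smyd1*, a muscle methyltransferase, ranged from 6.83 to 9.87, above the floor in every cell, while its other probe was at the floor. WT cell 2 was thus the highest cell for *Myl2*, *Myh7b* and a pair of *Tpm1* probes, as it was for *Myl3*, *Myh7* and *Myh6*.

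Of 10 other Z-disc and intermediate filament genes, 5 were above the floor in at least 1 cell. *Csrp3* and *Speg*, of striated muscle, were above it in KO cell 4 only, at 11.17 and 10.58, although another *Speg* probe was above it in WT cell 1 (6.96) and WT cell 2 (6.17). *Synpo2l* was above it in all cells, from 9.50 to 13.48. *Des*, which encodes the muscle intermediate filament desmin, was at the floor in all 8 cells. Of 10 genes of calcium handling and natriuretic peptides, 2 were above the floor, *Atp2a2*, the calcium pump of the sarcoplasmic reticulum, at 9.25 in WT cell 2 and at most 6.04 elsewhere, and *Hrc*, from 5.64 to 6.71. The other *Atp2a2* probe was at the floor in all 8 cells. *Ryr2*, *Pln*, *Nppa* and *Nppb* were at the floor in all 8 cells. KO minus WT had a median of 0 in each of these 4 lists. The floor sets this median, since 5 of 8, 5 of 9, 5 of 10 and 8 of 10 genes were at the floor in all cells by the probe used. It therefore says nothing about the genes above the floor. *Tpm1*, by the probe used, was the one gene in them past 5-fold.

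Cardiac transcription factors were above the floor for 5 of 10 genes. By the probes used, 2 of the 10, *Gata4* and *Tbx20*, were past 5-fold higher in KO, against 2.83% of all probes. *Gata4* was at 5.64, 5.64, 11.08 and 5.64 (WT) and 12.62, 15.87, 12.04 and 13.25 (KO). Its difference was 6.44 (SD 2.26), and its WT and KO cells did not overlap, as for 1.34% of all probes. *Hand2* was at 5.64, 11.98, 5.64 and 12.08 (WT) and 12.64, 12.97, 5.64 and 5.64 (KO). *Tbx20*, by its brightest probe, was above the floor in KO cell 1 (13.27) and KO cell 2 (7.0) only, with no usable spot in KO cell 3. The other *Tbx20* probes were at the floor in every cell, and its difference rests mainly on KO cell 1. *Srf*, which binds CArG boxes in promoters of muscle genes and is named here after its values were seen, was at 13.66 in KO cell 4 and at most 6.73 elsewhere by its brighter probe, while its other probe was at the floor there and above it in WT cell 1 (8.54), KO cell 1 (8.19) and KO cell 2 (9.07). In WT cell 2, which had the highest sarcomere signals, *Hand2* was the one factor of the 10 above the floor. Of 13 non-muscle and smooth muscle paralogs, 10 were above the floor, with *Actg1* from 16.27 to 18.32, *Myl6* from 15.07 to 17.67 and *Myl12a* from 9.96 to 16.71.

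**Figure D4:**
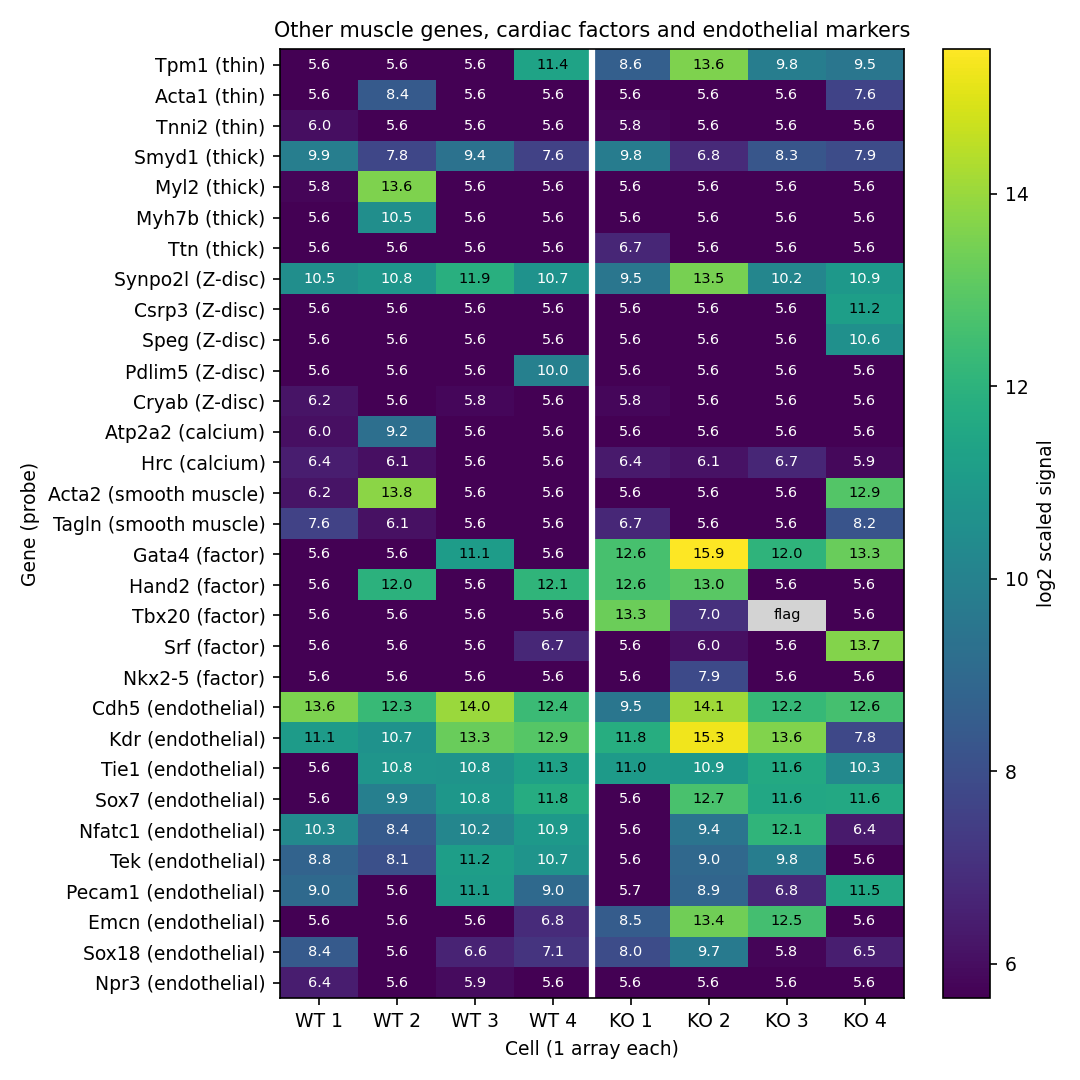
The log2 scaled signal of the listed genes above the floor of 5.64 in at least 1 cell (rows, with their list in parentheses) in each of 8 cells (columns, WT 1 to 4 and KO 1 to 4), with a grey box where the spot was marked as an outlier. By the brightest probe of each gene, the one shown, *Myl2*, *Myh7b* and *Atp2a2* were highest in WT cell 2, at 13.57, 10.50 and 9.25. *Csrp3* and *Speg* were above the floor in KO cell 4 only, and *Gata4* was at 12.04 or more in all KO cells. The other *Atp2a2* probe was at the floor in all cells.

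Some markers of the labelled compartment were above background in every cell, but the set differed between cells. The study had assigned cell type by PCR of marker genes on each cDNA. Levels of any gene used for that choice, endothelial or of cardiomyocytes, may therefore be partly fixed by it. Of 10 endocardial or endothelial markers, 7, 8, 9 and 10 (WT) and 6, 9, 9 and 8 (KO) passed the background call. *Cdh5*, the cadherin of endothelial junctions, was at 12.29 in WT cell 2 and 12.58 in KO cell 4, and between 9.50 and 14.08 over all cells. *Kdr*, a VEGF receptor, was at 10.67 in WT cell 2 and at 7.76 in KO cell 4, its lowest cell by the brighter of its 2 probes. By the other *Kdr* probe KO cell 4 was at 9.58 and not the lowest, in a range of 9.36 to 11.63. *Tie1*, an endothelial receptor kinase, ranged from 10.30 to 11.63 except in WT cell 1, which was at the floor. *Pecam1*, an endothelial adhesion molecule, was at the floor in WT cell 2 and at 11.54 in KO cell 4. *Emcn* and *Npr3* were at the floor in both of these cells. *Sox18* was at the floor in WT cell 2 and at 6.49 in KO cell 4, and *Tek* at 8.06 and at the floor. *Nfatc1*, an endocardial marker, was at 8.44 and 6.35 by its brighter probe and at the floor by the other, and *Sox7* at 9.90 and 11.61. KO cell 1 was at the floor for *Tek*, *Nfatc1*, *Npr3* and *Sox7*. The summed scaled signal of the 10 markers was 10037 to 35685 in WT and 7045 to 79403 in KO cells, with 10037 in WT cell 2 and 13906 in KO cell 4. That of the 10 sarcomere genes was 396 to 80003 in WT and 828 to 48787 in KO cells, with 80003 in WT cell 2 and 31611 in KO cell 4. The value of 828 is that of KO cell 2, without *Myh6*. WT cell 2 among the WT cells, and KO cell 1 among the KO cells (48787 and 7045), had the highest sarcomere sum and the lowest endothelial sum. *Actc1* and *Myl4* made up nearly all of the sarcomere sum in KO cell 1. The mean log2 signal of the markers had r of -0.53 (rho -0.67) over the 8 cells with that of the sarcomere genes, and of -0.29 without WT cell 2 and KO cell 4.

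Of 4 smooth muscle markers, 2 were above the floor in at least 1 cell. *Acta2*, smooth muscle actin, which the embryonic heart muscle also makes, reached 13.80 in WT cell 2 and 12.86 in KO cell 4, with WT cell 1 at 6.15 and the other 5 at the floor. *Tagln*, an actin-binding protein, differed from it, at 7.60, 6.10, 5.64 and 5.64 (WT) and 6.74, 5.64, 5.64 and 8.22 (KO), so that WT cell 1 was the highest WT cell. *Myh11* and *Cnn1* were at the floor in all 8 cells. The mean of these markers had r of 0.82 (rho 0.53) with that of the sarcomere genes, and of -0.36 without WT cell 2 and KO cell 4. Markers of blood (5), endoderm (5) and epicardium (3) were at the floor in all cells. Among them, only *Hbb-bh1* in WT cells 1 and 2 and *Hbb-y* in KO cell 4, both of blood, passed the background call. A mixture of cells in a tube and transcripts of 1 cell cannot be told apart in these data, and the part of other cells in the sarcomere signals was not tested.

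**Figure D5:**
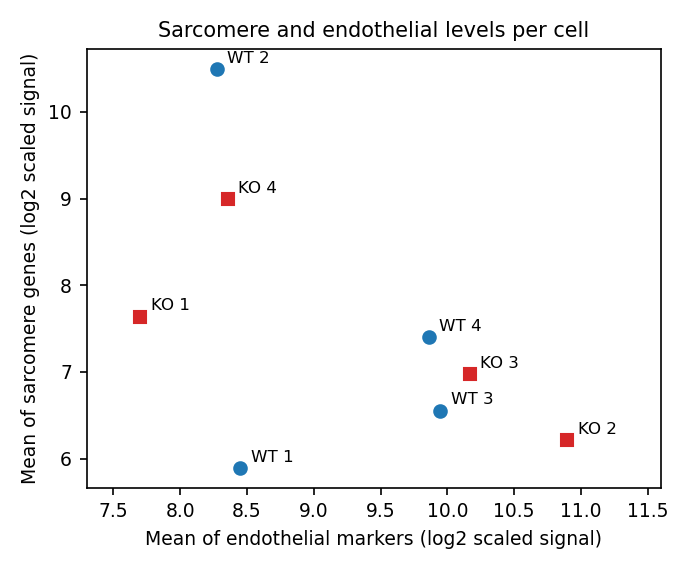
The mean log2 scaled signal of the 10 sarcomere genes (9 in KO cell 2, without *Myh6*, vertical axis) against that of 10 endothelial markers (horizontal axis) in WT cells (circles) and KO cells (squares), 1 point for each cell. WT cell 2 and KO cell 4 have the highest sarcomere means, 10.49 and 9.00, and lie with WT cell 1 and KO cell 1 at the lower endothelial means.

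The promoters of these genes were read for motifs of muscle transcription in the 250 bases before each start in RefSeq (GRCm38.p6), on both strands. All 10 genes were matched, with 13 starts. The CArG box, the site of SRF, was found in 3 of the 13, at *Actc1*, *Myl3* and *Myl7*, and in 1.47% of 32851 windows of all genes. These 3 are printed for 150 bases up to the start, with the CArG box in capitals.
*Actc1*, minus strand, chr2:114052876-114053025: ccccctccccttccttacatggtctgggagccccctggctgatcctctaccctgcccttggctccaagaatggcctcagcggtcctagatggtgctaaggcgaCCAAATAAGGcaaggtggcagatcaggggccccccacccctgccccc
*Myl3*, plus strand, chr9:110763528-110763677: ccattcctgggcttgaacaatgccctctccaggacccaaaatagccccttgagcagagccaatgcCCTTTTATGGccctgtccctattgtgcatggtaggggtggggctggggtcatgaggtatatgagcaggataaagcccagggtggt
*Myl7*, minus strand, chr11:5898783-5898932: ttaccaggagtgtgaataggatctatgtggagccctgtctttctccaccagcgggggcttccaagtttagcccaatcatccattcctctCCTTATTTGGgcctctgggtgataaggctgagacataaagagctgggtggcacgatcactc
The boxes begin 47, 85 and 61 bases before the start of *Actc1*, *Myl3* and *Myl7*. The 3 genes were not high in the same cells, and r between them was 0.52 for *Actc1* and *Myl7*, 0.20 for *Actc1* and *Myl3* and 0.12 for *Myl7* and *Myl3*. The motif CATTCC, bound by TEAD factors, was found in 6 of the 13 windows (*Myh6*, *Myh7*, *Myl3*, *Myl7*, *Tnnc1* and *Tnnt2*) and in 12.6% of all windows. The GATA motifs AGATAA, in *Tnnt2*, and TGATAA, in *Myl7*, were found in 1 window each and in 9.99% and 7.94% of all windows. A match is a description of the sequence only.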

How the data were processed

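Single endocardium cells were profiled on 8 1-colour Agilent arrays, 4 WT and 4 KO, from amplified cDNA. Cell type had been assigned by the study by PCR of marker genes on each cDNA. The authors deposited the output of Feature Extraction 12.0.2.2 for array design 028005 (mm9), in which the intensity of each spot is background-subtracted and detrended but not normalized between arrays. The other deposited columns used are the software's marks for outliers, saturated spots and spots over background. The GeneSpring normalization of the study's methods had not been applied.

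Control spots and outlier spots were left out and spots of a probe averaged. A factor brought the 50th percentile of each array, over 7570 probes that passed the background call in all cells, to their mean. A floor of 50 then preceded log2. Of 55681 probes, 386 lacked a usable spot on at least 1 array. Of these, the *Myh6* probe with 7 usable arrays was kept. No probe was saturated. Where a gene had several probes, that with the highest mean was used. Of each list the 3 genes with the highest mean are named, except where they were at the floor, as are further genes that define the structure or cell type, chosen with their values known, and the most similar genes were the 5 with the highest r. The genes and lists were chosen with earlier results of these data known. A CArG box is 2 C, 6 A or T, and 2 G.

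Differences and correlations were computed in Python 3.11.15 with numpy 2.4.6 and pandas 2.3.3, figures in matplotlib 3.10.9, and normexp in R 4.3.3 with limma 3.58.1. The alternatives were other scalings (75th percentile, all probes, quantile), floors of 10 and 200 or set before scaling, normexp with an offset of 50, the mean of a gene's probes, a filter of 3 cells, another detection call, rho, centring on genotype means and leaving out cells.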

Additional observations from a re-analysis of the deposited data

Results flagged for a closer look

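In 6 of the 19 gene and genotype groups checked, 1 cell stood apart: its gap to the nearest of the others, divided by the range of the group, was above Dixon's critical value. Chance gives this in about 5% of groups of normal values, and where the other 3 cells are at the floor the ratio is 1 by construction. This was so for *Myl3* in WT cell 2, *Tnni1* in WT cell 2, *Tnnt2* in WT cell 3, *Tnnt2* in KO cell 4 and *Actn2* in KO cell 4, each with a ratio of 1. *Myh6* in WT cell 2 had a ratio of 0.859, with 1 of the other WT cells at the floor. Groups with all cells at the floor, which were *Tnnc1* in both genotypes, *Myl3* in KO and *Actn2* in WT, could not be flagged. The count of 6 of 19 can therefore not be read against 5%.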

How the results depend on the processing

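The median difference between KO and WT cells over the 10 genes (-0.08) was -0.38 to 0 under 13 other settings and -0.98 (without KO cell 4) to 0.45 (without KO cell 2) when 1 cell was left out, so that its sign was not stable. The median r between genes (0.30) was 0.12 (without WT cell 2) to 0.39 when 1 cell was left out, and -0.26 to 0.38 under 16 other settings. The lowest value, -0.26, was that without the 2 cells farthest from the median of the gene mean, which are WT cell 2 and KO cell 4; with normexp it was 0.11. The median number of genes well above background in a cell (6) was 6 to 6 when 1 cell was left out, 7 with the other detection call and 6 among the 8 genes that passed the filter of 3 cells. Of 208 values of single genes recomputed, 206 moved by less than the SD between cells, and the other 2 were *Tnnc1* with normexp (0.26) and *Actn2* with a floor of 10 (0.84). This SD had a median of 2.97, so the count is no measure of stability. Without KO cell 4, *Myl7* went from -0.15 to -1.75 and *Tnnt2* from 0.47 to -1.43, and both counted as within it. Including the non-uniform *Myh6* spot, using the other *Myh6* probe and leaving out WT cell 2 with KO cell 4 were chosen after seeing the data. Slide and scan could not be used as a block, since there was 1 of each. No paired analysis was possible because no test was made and the replicate numbers only name cells. Signal over background limits *Tnnc1* and *Actn2*, which were well above background in 0 and 1 of 8 cells.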
